A study of Mus musculus with 2 samples.

Results

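The genes described here are those of the ATP-binding cassette (ABC) family on 2 Affymetrix mouse arrays, chosen by symbol as the probe sets annotated to exactly 1 gene of subfamilies A to G. They came to 45 genes with 92 probe sets, among 18193 genes that such probe sets name. One array held RNA of bEnd3 cells that expressed an siRNA against Smad4, the shared partner of the Smads of TGF-β and BMP signalling. The other held RNA of bEnd3 cells with a control siRNA. In both groups the siRNA was delivered by retrovirus from PLAT-E packaging cells, infected cells were kept with puromycin, and 2 infections were combined into 1 RNA sample. The labels give both as bEnd3, a line from BALB/c mouse brain cortex endothelium that polyoma middle T antigen has transformed. With 1 array per group there were no replicates, so no difference below has a replicate check and no test between groups was made.

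Before any family member is read, the arrays have to be set against their labels. The targeted gene was not reduced on the array labelled Smad4-siRNA: for Smad4, the brightest probe set read 1165 there after normalization, against 916 for the control, or 0.35 on the log2 scale (-0.07 as deposited). Xist, from the inactive X chromosome of female cells, had signals of 4476 and 20.7, and Y-linked genes were the reverse, with Eif2s3y at 0.349 and 324, Uty at 4.03 and 112, and Kdm5d at 4.69 and 122. These values go against the labels, by which both arrays hold the same line. Markers of the labelled cell type were present on the Control-siRNA array, where 17 of 18 endothelial markers reached the floor, the array's median signal of 22.8. On the other array 10 did, with summed signals of 1133 against 24797. Fibroblast markers went the other way, with 9 of 11 reaching the floor there against 2 for the control, and summed signals of 24394 against 996. Pericyte and smooth muscle markers had summed signals of 3387 and 103, macrophage markers 187 and 977, and epithelial markers 144 and 34.0. Most of the macrophage sum of the control came from 1 gene, Cd68, at 35.2 and 820. Only 3 of 8 macrophage markers reached the floor, namely Cd68, Csf1r and Cd14. Of 5 epithelial markers 2 did, Epcam (81.7 and 8.54) and Krt19 (39.3 and 1.51), neither of them in the control. Of 7 neuron and oligodendrocyte markers, 0 reached the floor. Of markers measured on both arrays, Nos3, Ramp2 and Cdh5 of endothelium were 102-fold, 59.8-fold and 34.0-fold lower, and Cd68 of macrophages 23.3-fold lower. Acta2 of smooth muscle was 48.8-fold and Pdgfra of fibroblasts 7.24-fold higher, while S100a4, Csf1r and Cd14 lay within 2-fold. The part these markers have in the differences below was not tested, and in bulk RNA fewer cells of a type cannot be told apart from less RNA per cell. "Higher" and "lower" therefore state the direction on the array labelled Smad4-siRNA relative to the Control-siRNA array, and not a response to loss of Smad4. Signals come in pairs in that order.

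ABC proteins share a nucleotide-binding domain that binds and splits ATP. In most of them this drives a substrate across a membrane, which makes the family a main route by which cells export sterols, phospholipids, drugs and conjugates. In brain endothelium the multidrug pumps on the blood side return many drugs to the blood, and the A and G subfamilies hand cholesterol to lipoproteins. Subfamilies E and F carry the nucleotide-binding domains without a membrane domain and work on ribosomes.

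The family as a whole divided about evenly. Of the 45 genes, 24 were measured on both arrays, meaning that each signal reached the floor. Another 3 reached it with the Smad4-siRNA label alone, 3 with the control alone, and 15 nowhere. Over the 30 genes that reached the floor on an array, with a side below the floor set to it, 5 were higher by 2-fold or more and 5 were lower by as much, or 16.7% each way. Over all 11581 genes so measured the shares were 16.0% higher and 15.8% lower, so the family's counts were near the background. Without normalization, as deposited, 4 were higher and 6 lower, so that higher genes made up 40% of the calls in place of 50%. Among the genes measured on both arrays, the median log2 ratio was -0.20 for the family and -0.15 for all genes, and 15 of the 24 members were below 0. The middle of the family, from the 25th to the 75th percentile, ran from -0.83 to 0.55, beside -0.69 to 0.45 for all genes. As an error for single genes, the SD among probe sets of the same gene, pooled, was 0.47 on the log2 scale for 4546 genes and 0.47 for the 9 members with several probe sets measured on both arrays. This error holds neither the spread between arrays nor that between cultures.

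**Figure D1:**
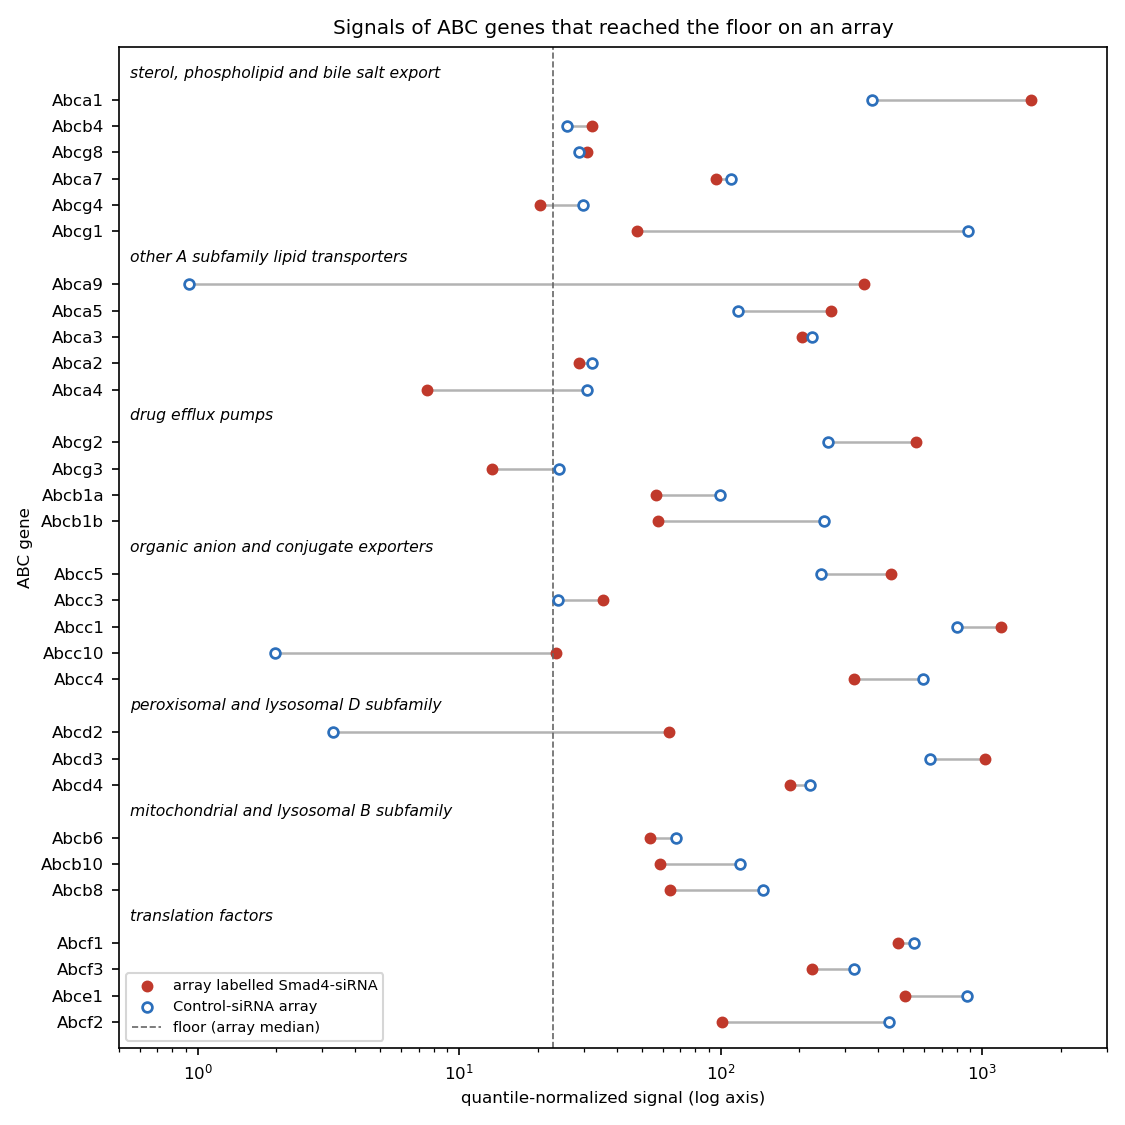
Quantile-normalized signal (log axis) of the 30 ABC genes that reached the floor of 22.8 (dashed line) on at least 1 array, by role, with filled points for the array labelled Smad4-siRNA and open points for the Control-siRNA array. Abca9 (354 and 0.927) and Abcd2 (63.6 and 3.30) are high on the first array and below the floor on the second, and Abcg1 (48.0 and 879) has a wide gap the other way.

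**Figure D2:**
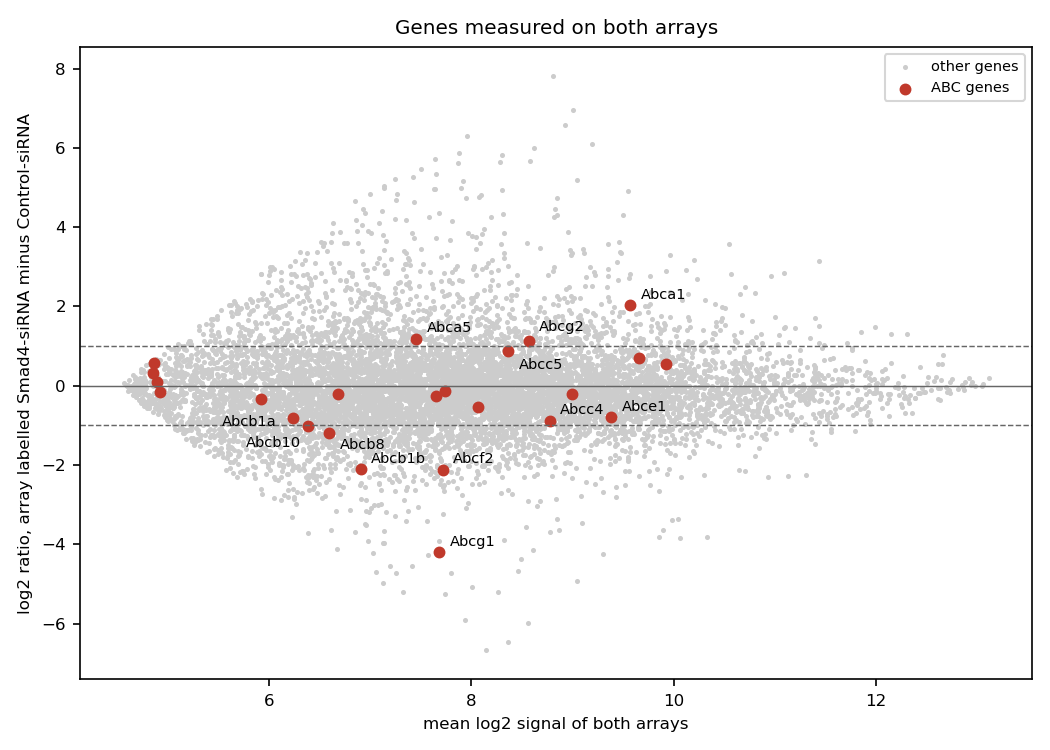
Log2 ratio of the array labelled Smad4-siRNA to the Control-siRNA array against mean log2 signal, for the 9479 genes measured on both arrays (grey) and the 24 ABC genes among them (red), with dashed lines at 2-fold. Most ABC genes lie within the grey cloud, 16 of the 24 within 2-fold, and Abcg1 at -4.20 lies farthest from 0.

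The exporters of cholesterol to lipoproteins went in opposite directions. Abca1, which loads cholesterol and phospholipid onto lipid-poor apolipoprotein A-I, read 1537 and 377. It was 4.07-fold higher, and its 3 probe sets had log2 ratios of 1.59, 1.80 and 2.03. Abcg1, which passes cholesterol on to HDL particles, had signals of 48.0 and 879 and was 18.3-fold lower. Its second probe set, at 1.24 and 62.3, reached the floor in the control alone and pointed the same way. Both genes are textbook targets of the liver X receptors (LXR), and here their log2 ratios were 2.03 and -4.20. Among the 9479 genes measured on both arrays, Abca1 stood at percentile 96.1 and Abcg1 at percentile 0.222. These calls held under the 8 alternatives run, in which Abca1 ranged from 1.67 to 2.12 and Abcg1 from -4.31 to -2.79.

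The other members of this role were dim or close to 0. Abca7, a relative of Abca1 linked to phospholipid handling and phagocytosis, had signals of 95.6 and 110, a log2 ratio of -0.20. Abcb4, the phosphatidylcholine floppase of bile, had 32.1 and 25.9, and Abcg8, which pairs with Abcg5 to export plant sterols, had 30.7 and 28.8. All of these lay well within 2-fold, and the last pair near the floor. Abcg4, a close relative of Abcg1, had probe sets that disagreed, at 20.3 and 29.8 in the brightest and at 24.96 and 9.29 in the other. Abcg5 and the bile salt export pump Abcb11 were below the floor on both arrays.

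The window before the annotated start of Abca1 is shown because this gene had the highest log2 ratio of the members measured on both arrays. It is RefSeq sequence of the 250 bases before the start, on the minus strand at chr4:53159896-53160145 of GRCm38.p6, and capitals mark matches to the searched motifs on either strand.
Abca1: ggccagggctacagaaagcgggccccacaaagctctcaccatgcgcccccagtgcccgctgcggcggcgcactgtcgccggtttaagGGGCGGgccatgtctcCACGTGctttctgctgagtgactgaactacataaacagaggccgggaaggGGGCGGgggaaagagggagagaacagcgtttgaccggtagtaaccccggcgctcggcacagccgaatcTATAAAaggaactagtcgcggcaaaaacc
The motifs searched were TATAAA (the TATA box), CCAAT (the CCAAT box), GGGCGG (the GC box) and CACGTG (an E-box). The window held TATAAA beginning 29 bases before the start, GGGCGG at 2 places and CACGTG at 1. Over 32851 windows of the same length, the shares with a match were 12.4% for TATAAA, 33.8% for CCAAT, 32.7% for GGGCGG and 6.02% for CACGTG. In all, 35 of the 45 members had an entry, and Abcg1 is named only. A match is a description of the letters and not evidence that a factor binds.

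Among regulators and acceptors of sterol efflux, the genes past 2-fold were higher. Of 13 LXR and sterol regulators with a probe set of their own, 9 reached the floor on an array, and 5 of them were past 2-fold higher and 0 lower, beside 16.0% and 15.8% of all genes. The median log2 ratio was 1.03 over the 7 measured on both arrays and -0.15 over all genes. Srebf2, the main activator of cholesterol synthesis genes, was 4.44-fold higher. Rxra, the partner receptor of LXR, was 3.62-fold higher in its brightest probe set, with a log2 ratio of 1.86, but its other probe set measured on both arrays had 0.32. Insig1, which holds the sterol sensor in the endoplasmic reticulum, was 3.35-fold higher. Nr1h3, which encodes LXRα, had signals of 34.2 and 17.2, the second below the floor. Mylip had signals of 742 and 15.9, the second below the floor, and was at least 32.6-fold higher. Scap was 2.04-fold higher, with a log2 ratio of 1.03 that was 0.73 as deposited. The remaining regulators that reached the floor, Rxrb, Srebf1 and Ppard, were within 2-fold. Of these, Rxrb was above 0 after normalization (0.23) and below it as deposited (-0.12). Of 14 apolipoprotein and HDL genes, 8 reached the floor, 4 were at least 2-fold higher and 0 lower, against 16.0% and 15.8% over all genes. Apoe, an acceptor of exported cholesterol, had signals of 1807 and 30.6 and was 59.0-fold higher. Apod had signals of 1507 and 2.55, the second below the floor, and was at least 66.1-fold higher. Pltp, the phospholipid transfer protein, was 26.9-fold higher at 2381 and 88.7, and Vldlr was 2.07-fold higher in its brightest probe set (a log2 ratio of 1.05, and 0.75 as deposited), with 6 probe sets from -0.25 to 1.09. As deposited, both lists lost 1 call, with 4 and 3 higher. Of the fibroblast markers that reached the floor, 8 of 9 were higher on the same array, and their part in these values was not tested.

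Among other lipid transporters of subfamily A, Abca9 had the widest gap. Abca9, a member without an established substrate, read 354 and 0.927, the latter far below the floor, and was at least 15.5-fold higher. Its other probe set was below the floor on both arrays, so this value rests on 1 probe set. The bound moves with the floor, from a log2 ratio of 3.96 to 1.48 with the 75th percentile as floor and 5.98 with the 25th. Abca5, a lysosomal transporter, had signals of 264 and 116, a log2 ratio of 1.19. Its second probe set, at 24.5 and 14.9, reached the floor on 1 array, and the median over both probe sets was 0.65, under 2-fold. Abca3, the surfactant lipid transporter of lung, had 205 and 223 in its brightest probe set, and Abca2, found in lysosomes of oligodendrocytes, had 28.7 and 32.1. Their log2 ratios of -0.12 and -0.16 were smaller than the spread between probe sets, and Abca2 was above 0 as deposited (0.08). The other Abca3 probe sets pointed lower too. One read 53.8 and 89.0, a log2 ratio of -0.73, and the other 6.77 and 23.8, reaching the floor in the control alone. Abca4, the retinoid flippase of photoreceptors, had 7.54 and 30.7, of which 1 side reached the floor. Abca6, Abca8a, Abca8b, Abca12, Abca13, Abca14 and Abca16 were below the floor on both arrays.

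The multidrug pumps of the blood-brain barrier did not share a direction. Abcb1b, 1 of the 2 mouse genes for P-glycoprotein, read 57.8 and 248 and was 4.29-fold lower. Abcb1a, the other P-glycoprotein gene and the one typical of brain capillaries, had signals of 56.8 and 99.6 in its brightest probe set, a log2 ratio of -0.81. In its second probe set they were 38.2 and 99.6, a log2 ratio of -1.38, so only 1 of its 2 probe sets was past 2-fold. Abcg2, the breast cancer resistance protein, which shares many substrates with P-glycoprotein, went the other way, at 560 and 257. It was 2.18-fold higher by its single probe set, a log2 ratio of 1.12 that was 0.81 as deposited and 0.94 with median centring, both under 2-fold. Abcg3, a rodent relative of Abcg2, had 13.4 and 24.0. Abcb1a and Abcb1b are close copies of each other, and probe sets of such a pair can share signal. Beside these values, 15 of the 17 endothelial markers that reached the floor were at least 2-fold lower. Their part in the values of these pumps was not tested.

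Abcb1a and Abcb1b lie next to each other on chromosome 5. The windows before their starts are shown because Abcb1b was past 2-fold and the brightest probe set of Abcb1a, at 1.75-fold, was not. The second Abcb1a probe set was past it, at -1.38 on the log2 scale. Both windows are RefSeq sequence of GRCm38.p6 on the plus strand, at chr5:8566841-8567090 and chr5:8797897-8798146, with the same motifs in capitals.
Abcb1a: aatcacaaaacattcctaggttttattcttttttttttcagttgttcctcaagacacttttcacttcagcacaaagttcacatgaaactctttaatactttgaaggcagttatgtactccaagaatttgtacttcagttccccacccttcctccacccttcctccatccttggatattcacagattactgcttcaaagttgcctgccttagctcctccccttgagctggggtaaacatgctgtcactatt
Abcb1b: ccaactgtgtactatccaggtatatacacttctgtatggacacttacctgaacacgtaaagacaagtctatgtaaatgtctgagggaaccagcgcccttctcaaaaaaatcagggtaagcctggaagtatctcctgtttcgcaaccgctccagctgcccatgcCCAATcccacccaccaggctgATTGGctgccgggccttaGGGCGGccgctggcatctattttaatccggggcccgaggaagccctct
The Abcb1b window held CCAAT at 2 places, 1 on each strand, and GGGCGG at 1, beginning 48 bases before the start. The Abcb1a window held none of the 4 motifs, which says only that these letters are not in this window. The third gene of the cluster, Abcb4, had a log2 ratio of 0.31.

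Receptors and enzymes that act with the drug pumps varied. Of 12 xenobiotic and oxidative stress regulators, 9 reached the floor, and 3 were at least 2-fold higher and 0 lower, where 16.0% and 15.8% of all genes were. The median log2 ratio was 0.28, beside -0.15 for all genes, and was -0.07 as deposited. Ahr, the dioxin receptor, was 13.7-fold higher at 953 and 69.7, and its partner Arnt was 4.20-fold higher in its brightest probe set. The 4 Arnt probe sets measured on both arrays had log2 ratios from 0.67 to 2.44. Cyp1b1 had signals of 1757 and 8.61, the second below the floor, and was at least 77.1-fold higher. Hif1a had a log2 ratio of 0.89. Nr1i2, which encodes the pregnane X receptor that switches on drug pumps in liver, and Nr1i3 were below the floor on both arrays. Of 15 carriers of the brain endothelial barrier outside the family, 8 reached the floor, 3 were at least 2-fold higher and 1 was lower (2 as deposited). These are 37.5% and 12.5%, beside 16.0% and 15.8% of all genes. Slc29a1, a nucleoside carrier, was 3.32-fold higher, the monocarboxylate carrier Slc16a1 was 2.71-fold higher, and the lipoprotein receptor Lrp8 was 4.62-fold lower. Lrp1 had signals of 1575 and 16.3, the second below the floor, and was at least 69.2-fold higher. The glucose carrier Slc2a1, the classic carrier of that barrier, had signals of 729 and 1023, and Mfsd2a was below the floor on both arrays.

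Exporters of organic anions and conjugates, subfamily C, held no gene past 2-fold among the 5 that reached the floor, though Abcc10 passed it with a lower floor. Abcc1, which exports glutathione conjugates, read 1176 and 802, and its probe sets gave 0.55 and 0.73 on the log2 scale. As deposited the first was 0.16, so the size of this difference rested largely on the scaling. Abcc4, which exports cyclic nucleotides and prostaglandins, was lower in value at 323 and 594, a log2 ratio of -0.88, and past 2-fold as deposited (-1.22) and with median centring (-1.10). Abcc5, another exporter of cyclic nucleotides, had 448 and 243 in its brightest probe set, a log2 ratio of 0.89, but its 8 probe sets measured on both arrays ran from -1.14 to 0.89 with an SD of 0.64. Their median with any other probe set at the floor was -0.14, so no direction can be given for Abcc5. Abcc3, a conjugate exporter of liver and gut, had 35.4 and 23.9, close to the floor. Abcc10 had 23.5 and 1.98, just at the floor on 1 array, and was past 2-fold with the 25th percentile as floor (at least 2.07 on the log2 scale). Abcc2, Abcc6 and Abcc12 were below the floor on both arrays, as were Abcc8 and Abcc9, the sulphonylurea receptors that form potassium channels with Kcnj11 and Kcnj8. Kcnj11 had signals of 89.3 and 46.3, a log2 ratio of 0.95 that was 1.05 as deposited, and Kcnj8 was below the floor on both arrays. Abcc9 is also a pericyte marker, and here it stayed below the floor. So did 3 of the 10 pericyte and smooth muscle markers, Rgs5 among them, while 6 of the 7 that reached the floor were higher.

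**Figure D3:**
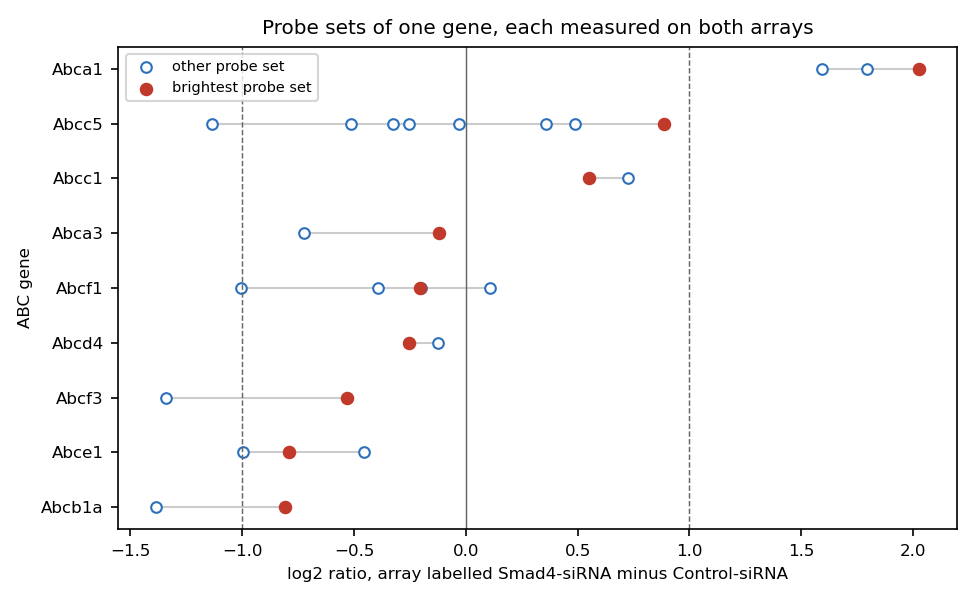
Log2 ratio of each probe set measured on both arrays, for the 9 ABC genes with more than 1 such probe set, with filled points for the brightest probe set and dashed lines at 2-fold. The 3 probe sets of Abca1 lie between 1.59 and 2.03, whereas the 8 of Abcc5 lie on both sides of 0.

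Genes of the supply and use of glutathione, which Abcc1 and Abcc2 export as such or as conjugates, were looked at beside them. Of 15 that reached the floor, 7 were at least 2-fold higher and 1 was lower, or 46.7% and 6.67%, beside 16.0% and 15.8% of all genes. Among those measured on both arrays, the log2 ratios farthest from 0 were those of transferases that join glutathione to substrates, with Gstm2 52.6-fold, Gsta4 38.8-fold and Gstm1 9.77-fold higher. Gstt1, another transferase, reached the floor on 1 array and was at least 36.0-fold higher at 819 and 3.66, while Gstp1 had a log2 ratio of 0.28. Slc7a11, which imports cystine for glutathione synthesis, was 3.17-fold higher in its brightest probe set, but its other probe set had a log2 ratio of 0.45. Gclm, the modifier subunit of the enzyme that limits glutathione synthesis, was the lower gene at 442 and 1416. The median log2 ratio of the list was 0.30, and -0.00306 as deposited, where 7 genes were higher and 3 lower.

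In peroxisomes, Abcd2 was seen on 1 array only. Abcd2, which imports very long and polyunsaturated fatty acids, read 63.6 and 3.30, at least 2.79-fold higher. All 4 of its probe sets had the higher signal on that array, and 2 of them reached the floor there, the other of these at 96.8 and 0.655. Abcd3, the abundant peroxisomal membrane protein PMP70, had 1025 and 633, a log2 ratio of 0.70 that was 0.31 as deposited. Abcd4, which works in lysosomal release of vitamin B12, had 184 and 219, a log2 ratio of -0.25. Of 18 genes of peroxisome import and β-oxidation that reached the floor, 4 were at least 2-fold higher and 1 lower, beside 16.0% and 15.8% of all genes, and as deposited 2 and 0. Pex5, the receptor for imported enzymes, was 3.29-fold higher and Pex11a, which divides peroxisomes, 3.14-fold higher. Pex10 was 2.20-fold lower at 24.3 and 53.7. Pex19, the chaperone that delivers ABCD proteins to the peroxisome, had signals of 394 and 187, a log2 ratio of 1.07 that was 0.79 as deposited. Its other probe set measured on both arrays had 0.61, under 2-fold.

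Of the B subfamily members of mitochondria, Abcb8 and Abcb10 were past 2-fold lower and Abcb6 was not. Abcb8, an inner membrane transporter tied to iron export, had signals of 64.0 and 145 and was 2.27-fold lower, and its second probe set, at 17.9 and 43.3, pointed the same way. Abcb10, which supports haem synthesis, had 58.8 and 118 and was 2.02-fold lower, on the edge of the threshold, with a log2 ratio of -1.01 that was -0.99 as deposited and -0.88 with a lowess trend removed. Abcb6, which carries porphyrins, had 53.9 and 67.7, a log2 ratio of -0.33. All 3 were below 0 under each of the 8 alternatives that gave a value. The lysosomal peptide transporter Abcb9 was below the floor on both arrays. Of 21 genes of mitochondrial haem and iron-sulphur assembly, 4 were at least 2-fold higher and 5 lower, or 19.0% and 23.8%, not far from the 16.0% and 15.8% of all genes. The median log2 ratio was -0.52 over the 20 measured on both arrays, beside -0.15 for all genes. As deposited the counts were 2 and 7, and with a lowess trend removed 4 and 2, and the scaling thus decided which direction was the more frequent. Nfs1, the desulphurase that supplies sulphur to iron-sulphur clusters, was 2.55-fold lower in its brightest probe set (-0.49 on the log2 scale in another), while the mitochondrial iron importer Slc25a37 was 2.67-fold and Fech, which puts iron into haem, 2.56-fold higher. Abcb10 and Slc25a37, whose proteins are known to form a complex, thus had opposite directions.

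Of the 4 members that act in translation, Abcf2 alone was past 2-fold in its brightest probe set. Abcf2 had signals of 101 and 438 and was 4.33-fold lower, and its second probe set, at 16.7 and 43.8, pointed the same way. Abce1, which splits ribosomes after termination, had 507 and 878, and this was a log2 ratio of -0.79. Its other probe sets pointed the same way, at 290 and 578 and at 34.3 and 47.1. The brightest was past 2-fold as deposited (-1.17) and with median centring (-1.04). Abcf3 had 223 and 322 in its brightest probe set, a log2 ratio of -0.53, but -1.34 in its other probe set measured on both arrays. A further Abcf3 probe set, at 18.1 and 73.7, reached the floor in the control alone and pointed lower too. Abcf1, which binds initiation factor eIF2, had 475 and 547, a log2 ratio of -0.20, and its 5 probe sets measured on both arrays ran from -1.01 to 0.11. The 4 genes were thus below 0 in the brightest probe set, as were 5411 of the 9479 genes measured on both arrays, and Abcf1 was close to the median of all genes (-0.15). Of 11 partners in ribosome recycling and initiation, 0 were at least 2-fold higher and 4 lower, beside 16.0% and 15.8% of all genes, with a median log2 ratio of -0.30. Etf1, the release factor that acts before Abce1, was 2.20-fold lower in its brightest probe set, but its 5 probe sets measured on both arrays ran from -1.14 to -0.02. Eif5 was 2.30-fold lower and Eif6, which keeps ribosomal subunits apart, was 2.26-fold lower. The counts were 0 and 5 as deposited and with median centring, and 1 and 3 with a lowess trend removed.

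ABC genes whose symbols do not follow the family's pattern were looked at beside it. Tap1 and Tap2 encode the peptide transporter that feeds MHC class I. Tap1 had signals of 161 and 38.1 and was 4.21-fold higher, but only 1 of its 4 probe sets was measured on both arrays. Tap2 had 222 and 73.7 and was 3.01-fold higher by its single probe set. Cftr, the chloride channel, was below the floor on both arrays. Of 13 genes of class I peptide loading, which include Tap1 and Tap2, 6 were at least 2-fold higher and 0 lower, against the 16.0% and 15.8% of all genes. The median log2 ratio was 1.15 over the 12 measured on both arrays. Psmb8, a subunit of the immunoproteasome, was 10.6-fold higher and Tapbp, which bridges the transporter to class I molecules, was 4.02-fold higher.

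**Figure D4:**
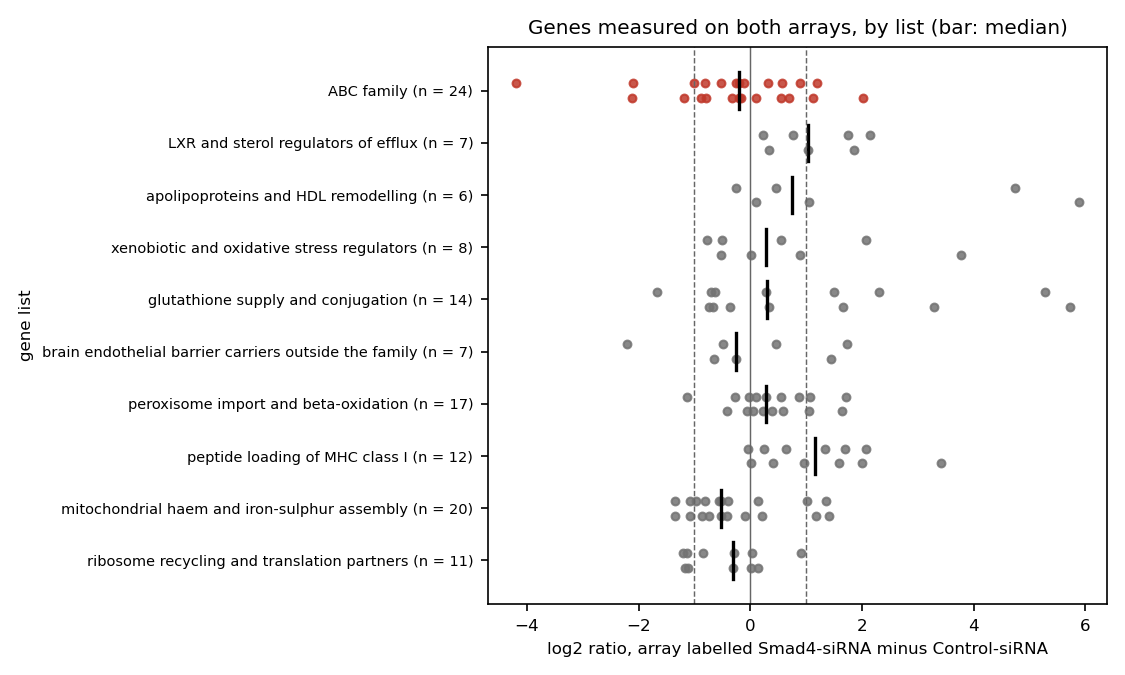
Log2 ratio of each gene measured on both arrays, for the ABC family (red) and 9 lists of genes that work with its members (grey), with the median of each as a bar and dashed lines at 2-fold. The family's median is -0.20, that of the LXR and sterol regulators 1.03 and that of the genes of haem and iron-sulphur assembly -0.52.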

How the data were processed

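Total RNA on 2 Affymetrix mouse arrays was compared, 1 per group, with groups from the sample titles. Each probe set has a deposited intensity, not logged, from MAS5 according to the submitters' processing notes. Its version is not stated in the sources used here, nor is its scaling target. Of 45101 probe sets, 64 controls were left out. Names came from the supplied platform annotation, updated by Entrez identifier to RefSeq (GRCm38.p6), with 34945 probe sets of 1 gene, 932 of several and 9160 unnamed. Because the 2% trimmed means differed by -17.2%, log2 signals were quantile normalized. The array median (22.8) was the floor. A gene was read from its brightest probe set (mean log2 signal), a side below the floor was set to it, and a call was a 2-fold difference. All members are accounted for, and of each list the up to 3 genes with the largest absolute log2 ratio where both arrays reached the floor, and all genes of lists of 3 or fewer, are named. Genes outside this rule (Nr1h3, Mylip, Scap, Rxrb, Srebf1, Ppard, Apod, Nr1i2, Nr1i3, Cyp1b1, Gclm, Gstt1, Gstp1, Slc7a11, Pex19, Slc2a1, Mfsd2a, Lrp1, Rgs5) were chosen after their values were seen. The members and lists were chosen with earlier results of these data known. The calls were run on simulated data with changes set past 2-fold in genes far above the floor, and with noise below the spread between probe sets. That run did not test how changes near the threshold or near the floor are called. Python 3.11.15, numpy 2.4.6, pandas 2.3.3 and statsmodels 0.14.6 were used.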

Additional observations from a re-analysis of the deposited data

How the results depend on the processing

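Alternatives were the values as deposited, median centring, removal of a lowess trend (fraction 0.3), a pseudocount at the 25th percentile, that percentile or the 75th as floor, the median over all probe sets of a gene, and dropping probe sets whose suffix marks shared sequence. The number of ABC genes at least 2-fold higher was 4 to 7 and the number lower was 2 to 7, against 5 and 5. The 2 came from a floor at the 75th percentile, where 17 members were left and Abcb1b was at -0.97 and Abcb8 at -0.19, since their lower sides were raised to that floor. The family's median ran from -0.30 to -0.09. Of 225 values of single genes under an alternative, 205 moved by less than the probe set SD of 0.47 and 20 moved by more. Part of the 205 could not move, so this count is no measure of stability. A changed floor left genes above it on both arrays as they were. The probe set alternatives did the same for genes read from the same single probe set. Of genes past 2-fold, 0 changed sign, while Abca2, Abcc5 and Abcg3, which were not past it, did under 2 or 3 alternatives. Members past 2-fold that lost the call under at least 1 alternative were Abca5, Abcg2, Abcd2, Abcb1b, Abcb8 and Abcb10. Abcd2 lost it with the 75th percentile as floor, where it was below the floor on both arrays. Abcb1a (-1.10) and Abcf3 (-1.34) passed 2-fold with the median over probe sets. With the 25th percentile as floor or as pseudocount, Abca4 (-2.03 and -1.47) and Abcc10 (2.07 and 1.94) passed it too, and as deposited and with median centring Abcc4 and Abce1 did. With that floor Abca8b was also higher and Abcb11 lower. No paired analysis was possible because each group has 1 array, and for the same reason no replicate could be left out. Signal near the floor limits Abca2, Abcb4, Abcc3, Abcc10, Abcg3, Abcg4 and Abcg8.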

Other observations

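Several ABC genes are neighbours, and these were looked at after their values were seen. Abcb8 and Abcf2, 2.27-fold and 4.33-fold lower, lie on chromosome 5 with 9 protein-coding genes between them in RefSeq gene order. Probe sets name 8 of these, of which 5 were measured on both arrays. Of the 5, 4 were below 0, beside 5411 of the 9479 genes measured on both arrays, and no test was made. Fastk had signals of 119 and 237. The log2 ratios of the others were -1.08 for Tmub1, -0.73 for Agap3, -0.39 for Cdk5 and 0.40 for Slc4a2. On chromosome 11, Abca8b, Abca8a, Abca9, Abca6 and Abca5 follow each other without another protein-coding gene between. In that run Abca9 (at least 15.5-fold) and Abca5 (2.28-fold) were higher, while the other three were below the floor on both arrays. On chromosome 16, Abcc5 and Abcf3 lie with 3 genes between them and had log2 ratios of 0.89 and -0.53 in their brightest probe sets.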
